A study of Caenorhabditis elegans with 2 samples.

Results

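Nuclear genes for the mitochondrial respiratory chain and ATP synthase were examined in a map of LIR-3 binding in Caenorhabditis elegans. The genes were chosen by name from the Ensembl annotation: all nuclear protein-coding genes named nuo-, sdh, ucr-, cyc-, cox-, atp-, asb-, asg- or sco-, together with gas-1, mev-1 and isp-1. This rule gave 46 of 19973 nuclear protein-coding genes. They fall into complex I (7 genes), complex II (5), complex III (7), cytochrome c (2), complex IV subunits (7), complex IV assembly (9) and ATP synthase (9). Chromatin was precipitated with an anti-GFP antibody from whole hermaphrodite larvae of strain OP312, genotype unc-119(ed3) III; wgIs312, whose transgene encodes LIR-3 with GFP and FLAG fused at the C-terminus. The larvae had been bleached and starved to synchronize them as L1, and were taken 6 h after synchronization. There was 1 group with 2 biological replicates, no control group among the samples, and a single transgenic line. A control experiment named in the labels was not analysed here.

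The respiratory chain passes electrons from NADH (complex I) and succinate (complex II) to coenzyme Q, then through complex III and cytochrome c to oxygen at complex IV, also called cytochrome c oxidase. Complexes I, III and IV pump protons across the inner mitochondrial membrane, and ATP synthase uses the gradient to make ATP. Most subunits are encoded in the nucleus and imported into mitochondria. LIR-3 is a zinc finger protein related to LIN-26.

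The data are lists of peaks, each with a summit and a score that the authors gave it. The IDR set holds the 1910 peaks that passed the authors' threshold on the irreproducible discovery rate, 1894 of them on nuclear chromosomes. The authors also deposited 1 list per replicate and 1 from the pooled replicates. These hold 30000 regions each from before the threshold, background regions included, so that a region in them is not by itself a peak. The score has no stated unit and is used here only to rank regions within a list. The lists hold no read counts or expression values, so read depth is unknown and neither the labelled stage nor the tagged gene could be checked. The samples were whole animals, in which strong binding in few cells and weak binding in many cannot be told apart. A gene counts here as having a LIR-3 peak if its 5' end, as annotated, is at most 500 bp from the summit of an IDR peak. Genes for piRNAs were left out where other 5' ends near a summit, or genes overlapping it, were sought. With 1 group there is no comparison to test, so counts are given with exact 95% intervals, which cover counting error only, beside the share among all 19973 nuclear protein-coding genes, the 46 included.

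Sequences are shown for some of the summits at these genes. The selection favours windows with a marked match and does not represent all the summits. Each line below gives 121 bases centred on the summit, read from the RefSeq genome (WBcel235, the same build as ce11) on the strand of the gene, 5' to 3'. Capitals mark GGGCGG, CTGCGTCT or GTCTCGCA on either strand, the last of which was picked after the windows had been read. The first 3 windows belong to the strongest summits at these genes, and the others are further summits with a marked match. The windows are sco-1 at chrII:4299376-4299496 (plus strand), cox-5A at chrIII:12905145-12905265 (plus), atp-5 at chrV:11124063-11124183 (minus), atp-2 at chrIII:5228102-5228222 (plus), ucr-2.1 at chrX:12018120-12018240 (plus), asb-2 at chrX:4469418-4469538 (plus) and nuo-1 at chrII:11097487-11097607 (plus).
sco-1: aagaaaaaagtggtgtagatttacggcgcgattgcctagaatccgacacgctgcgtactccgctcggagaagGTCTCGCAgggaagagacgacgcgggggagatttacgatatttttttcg
cox-5A: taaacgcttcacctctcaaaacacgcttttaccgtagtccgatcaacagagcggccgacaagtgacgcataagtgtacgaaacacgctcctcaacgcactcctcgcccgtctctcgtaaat
atp-5: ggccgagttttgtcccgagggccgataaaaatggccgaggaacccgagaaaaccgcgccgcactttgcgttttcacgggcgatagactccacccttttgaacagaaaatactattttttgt
atp-2: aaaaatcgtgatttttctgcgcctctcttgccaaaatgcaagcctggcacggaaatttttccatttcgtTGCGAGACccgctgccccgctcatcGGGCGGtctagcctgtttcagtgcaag
ucr-2.1: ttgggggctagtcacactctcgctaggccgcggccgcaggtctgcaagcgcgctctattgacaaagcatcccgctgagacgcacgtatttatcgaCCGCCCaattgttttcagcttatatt
asb-2: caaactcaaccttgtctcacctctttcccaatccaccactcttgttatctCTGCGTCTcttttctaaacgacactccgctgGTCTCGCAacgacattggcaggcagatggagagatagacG
nuo-1: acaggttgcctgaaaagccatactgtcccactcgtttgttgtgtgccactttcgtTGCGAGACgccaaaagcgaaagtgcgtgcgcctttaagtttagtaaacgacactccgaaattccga
The nuo-1 window overlaps exons of the non-coding RNA genes C09H10.11 and C09H10.13, and the other 6 windows overlap no annotated exon. The single capital that ends the asb-2 window is the first base of a GGGCGG that runs on beyond it. No marked sequence stood in the cox-5A or atp-5 window.

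Of the 46 genes, 17 had a LIR-3 peak (37%, exact 95% interval 23.2 to 52.5%), against 6.09% of all nuclear protein-coding genes (1216 of 19973, 5.76 to 6.43%). The 17 genes lay at 17 different summits. ATP synthase had a peak at 6 of 9 genes (66.7%, 29.9 to 92.5%), among them those for the alpha and beta subunits that form the catalytic head. Complex II had one at 3 of 5 genes (60%, 14.7 to 94.7%) and complex III at 3 of 7 (42.9%, 9.9 to 81.6%). Complex IV had one at 2 of 7 subunit genes (28.6%, 3.67 to 71%) and 2 of 9 assembly genes (22.2%, 2.81 to 60%). Complex I had a single peak among 7 genes (14.3%, 0.361 to 57.9%), and neither of the 2 cytochrome c genes had one (0%, upper limit 84.2%). The intervals of the complexes overlap one another, and the differences between complexes were not tested.

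**Figure D1:**
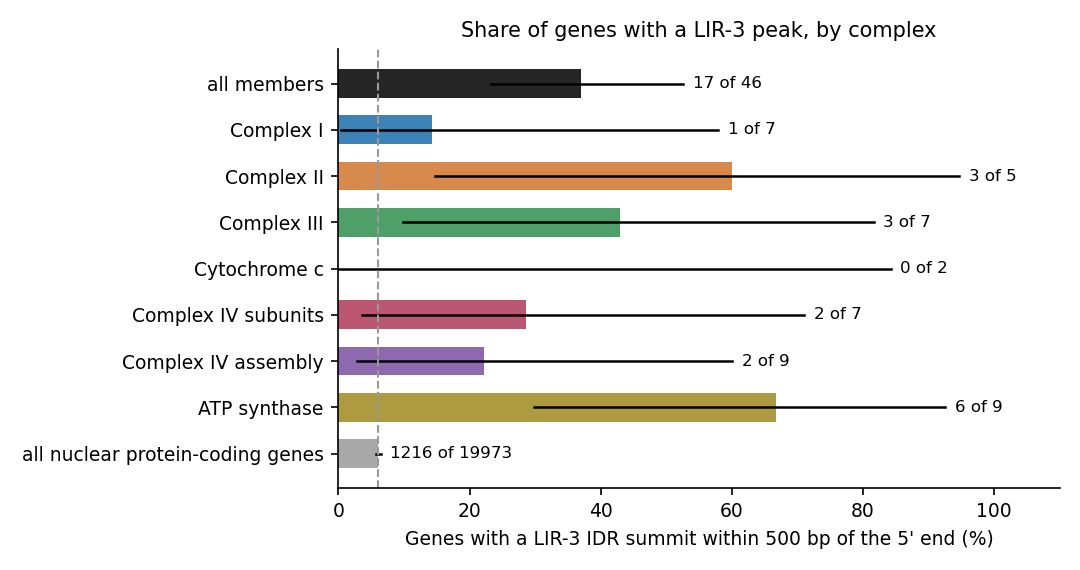
Bars give the percentage of genes with a LIR-3 IDR summit within 500 bp of the annotated 5' end, for all 46 genes, for each complex and, at the bottom and as a dashed line, for all nuclear protein-coding genes. Black lines are exact 95% intervals, which are wide because each complex has 2 to 9 genes: ATP synthase (6 of 9) and complex II (3 of 5) have the highest shares and cytochrome c (0 of 2) the lowest.

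In complex I, nuo-1 was the one gene with a peak. It encodes the flavoprotein that takes up electrons from NADH. The IDR peak at chrII:11097379-11097714 had its summit at 11097547, 290 bp upstream of the nuo-1 5' end, with a score of 87.2 in replicate 1 (rank 898 among the nuclear regions of that list), 85.2 in replicate 2 (rank 1050) and 160.2 in the pooled data (rank 941 of the 1894 nuclear IDR peaks). The summit lay inside the non-coding RNA gene C09H10.13, and the 5' ends of C09H10.11 and C09H10.13, at 1 and 54 bp from it, were nearer than that of nuo-1. The divergent ribosomal protein gene rpl-36.A shared the summit, at 343 bp. The other 6 genes, gas-1, nuo-2, nuo-3, nuo-4, nuo-5 and nuo-6, had none. Of these, nuo-2, which encodes an iron-sulfur protein of the complex, had the highest score in the pooled list: a region 334 bp upstream scored 42.1 in replicate 1, 23.4 in replicate 2 and 79.3 in the pooled list, where it ranked 2269.

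In complex II, 3 of the 5 genes had a peak: sdha-1 for the flavoprotein that oxidizes succinate, and mev-1 and sdhd-1 for the cytochrome b proteins that anchor the enzyme in the membrane. The sdha-1 peak (chrX:8546052-8546387, summit 8546220, 199 bp upstream) scored 89 in replicate 1, 115 in replicate 2 and 195 in the pooled data (rank 723). The mev-1 peak (chrIII:10333990-10334325, summit 10334158, 119 bp upstream) scored 91.8 in replicate 1, 62 in replicate 2 and 123 pooled (rank 1269). The sdhd-1 peak (chrII:11049944-11050279, summit 11050112, 199 bp upstream) scored 37.1 in replicate 1, 78.3 in replicate 2 and 121 pooled (rank 1301), the lowest pooled score of the 17. Of the 17 peaks, sdhd-1 differed most in rank between the replicates: its region ranked 2686 in replicate 1 and 1151 in replicate 2. The sdha-1 summit lay 3 bp from the 5' end of the non-coding RNA gene D2021.5 and 16 bp from that of the snoRNA gene D2021.6. The mev-1 summit was shared with jmjd-4, 140 bp away, and the sdhd-1 summit was nearer to ilkp-1, annotated as a PPM-type phosphatase, at 143 bp. No peak lay at sdhb-1, the iron-sulfur subunit, or at sdha-2, a second gene for the flavoprotein.

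In complex III, cyc-1 for cytochrome c1, ucr-1 for a core subunit and ucr-2.1, a gene of the core subunit type annotated with a peptidase M16 domain, had a peak. The ucr-2.1 peak (chrX:12018012-12018347, summit 12018180, 249 bp upstream) scored 137 in replicate 1, 158 in replicate 2 and 300.0 pooled (rank 416). The cyc-1 peak (chrI:8024570-8024905, summit 8024738, 316 bp upstream) scored 96.9 in replicate 1, 122 in replicate 2 and 209 pooled (rank 663). The ucr-1 peak (chrIII:5591722-5592057, summit 5591890, 245 bp upstream) scored 68.9 in replicate 1, 67.3 in replicate 2 and 133 pooled (rank 1167). The order of these 3 scores was the same in both replicates. No other 5' end lay within 500 bp of the cyc-1 summit, whereas nmat-1, for an enzyme of NAD synthesis, was at 137 bp from the ucr-2.1 summit and ddx-15, for a splicing helicase, at 172 bp from that of ucr-1. The Rieske iron-sulfur protein gene isp-1 had no IDR peak, but a region 319 bp upstream scored 69.9 in the pooled list (rank 2816), with 19.3 in replicate 1 (rank 11734) and 66.8 in replicate 2 (rank 1391).

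Among the complex IV subunits, both cox-5A and cox-5B had a peak, and cox-4, cox-6A, cox-6B, cox-6C and cox-7C had none. The cox-5A peak (chrIII:12905088-12905301, summit 12905205, 286 bp upstream) scored 345 in replicate 1 (rank 106), 435 in replicate 2 (rank 74) and 742 pooled (rank 92). The cox-5B peak (chrI:9788537-9788872, summit 9788705, 20 bp upstream) scored 115 in replicate 1, 76.4 in replicate 2 and 156 pooled (rank 972). No other 5' end lay within 500 bp of either summit. At cox-6A an IDR summit lay 796 bp upstream, outside the window; with a window of 1000 bp it raised the count to 18 of 46 genes (39.1%), against 7.87% of all protein-coding genes. The annotated 5' end of cox-6B is 86541 bp from its coding start, so that the window there does not cover the sequence next to the coding start.

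Among the complex IV assembly genes, sco-1 had the strongest LIR-3 peak of all 46 genes. Its product is of the SCO family, known in yeast and humans for delivering copper to cytochrome c oxidase. The sco-1 peak (chrII:4299315-4299568, summit 4299436, 217 bp upstream) scored 799.6 in replicate 1 (rank 9), 751 in replicate 2 (rank 17) and 1537 pooled (rank 13), where the strongest nuclear IDR peak scored 2614. No other 5' end lay within 500 bp of it. The cox-14 peak (chrIII:10218603-10218938, summit 10218771, 171 bp upstream) scored 90.3 in replicate 1, 84.1 in replicate 2 and 159 pooled (rank 947), and was nearer to rde-4, a gene of RNA interference, at 125 bp. RefSeq names the cox-14 product an assembly factor of cytochrome c oxidase. The other 7 assembly genes, cox-10, cox-11, cox-15, cox-16, cox-17, cox-18 and cox-19, had no peak.

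For ATP synthase, the 6 genes with a peak covered the head (atp-1, alpha; atp-2, beta), the stalk that holds it (atp-3, the oligomycin sensitivity conferral protein; atp-5, subunit d; asb-2, subunit b) and asg-2, subunit g of the membrane part. The strongest was at atp-5 (chrV:11124045-11124236, summit 11124123, 256 bp upstream), with 350.0 in replicate 1 (rank 104), 327 in replicate 2 (rank 137) and 666 pooled (rank 113). At atp-1 (chrI:12652187-12652319, summit 12652265, 12 bp upstream) the scores were 169.5 in replicate 1, 258 in replicate 2 and 407 pooled (rank 264). At atp-2 (chrIII:5227994-5228329, summit 5228162, 255 bp upstream) they were 142 in replicate 1, 193 in replicate 2 and 327 pooled (rank 368). These 3 kept this order in both replicates, and the remaining 3 were weaker. The asb-2 peak (chrX:4469310-4469645, summit 4469478, 288 bp upstream) scored 84.5 in replicate 1, 112 in replicate 2 and 202 pooled (rank 692). The atp-3 peak (chrI:5429774-5430109, summit 5429942, 34 bp upstream, inside the non-coding RNA gene F27C1.16) scored 109.6 in replicate 1, 94.6 in replicate 2 and 191 pooled (rank 751). The asg-2 peak (chrX:6840826-6841161, summit 6840994, 264 bp upstream) scored 57.7 in replicate 1, 80 in replicate 2 and 136 pooled (rank 1137). Neighbours shared 5 of these 6 summits: lmtr-3 at 63 bp from that of atp-5, mcrs-1 at 178 bp (atp-1), C34E10.10 and C34E10.12 at 278 and 281 bp (atp-2), glr-6 at 274 bp (asg-2), and F27C1.2 at 215 bp with the non-coding F27C1.16 and F27C1.17 at 112 and 10 bp (atp-3). No peak lay at asb-1, asg-1 or atp-4.

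**Figure D2:**
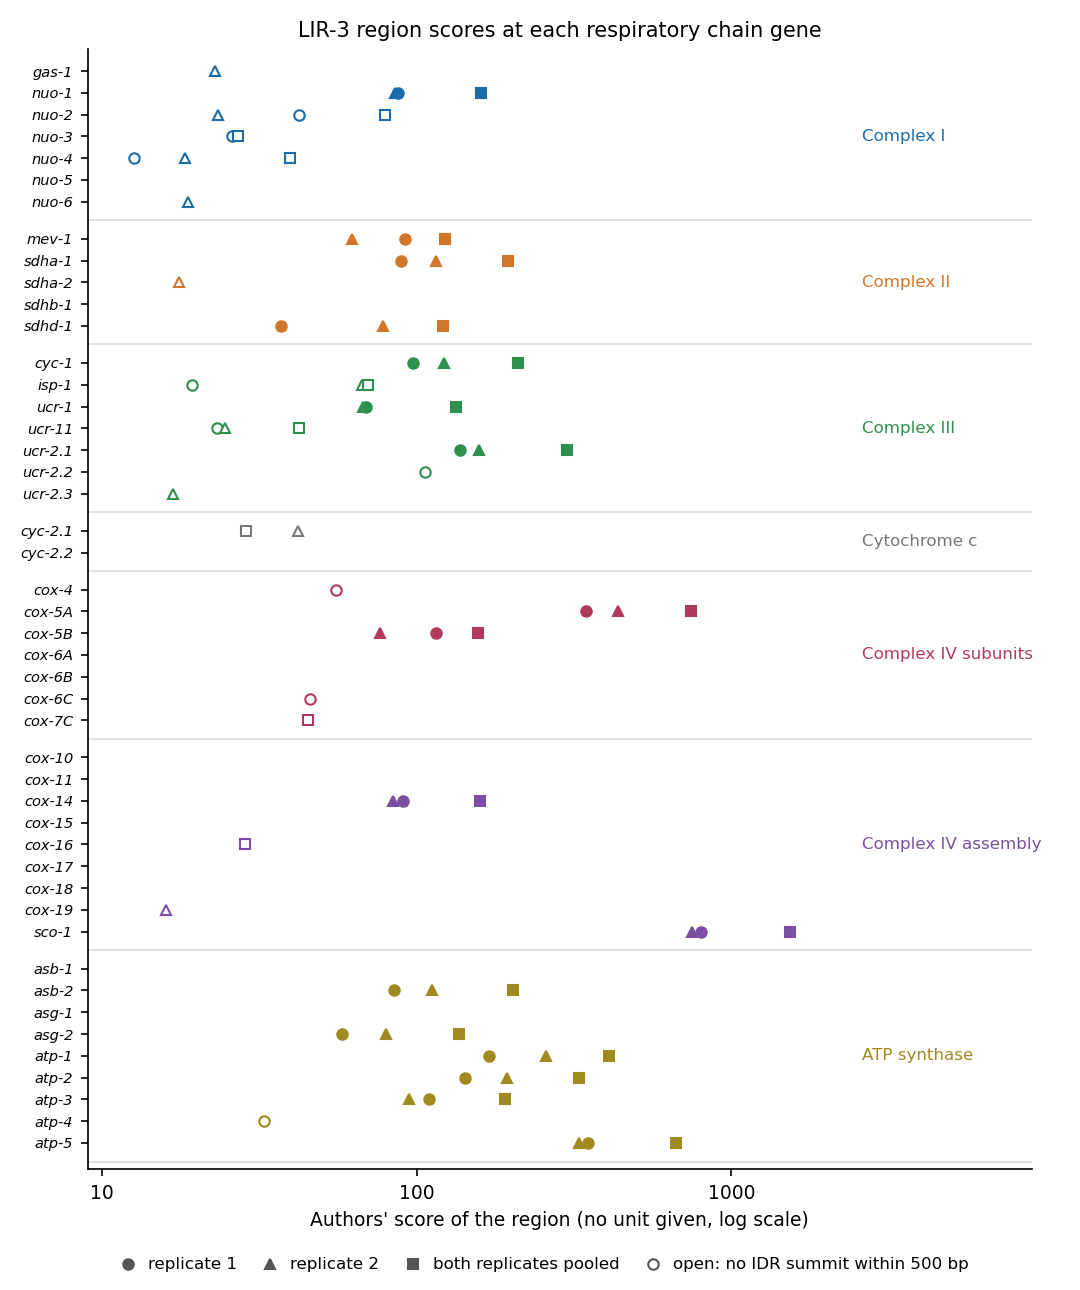
Each row is 1 of the 46 genes, grouped by complex, and each mark is the authors' score of the strongest region within 500 bp of the 5' end in a list (log scale, no unit), circles for replicate 1, triangles for replicate 2 and squares for both pooled. Filled marks are genes with an IDR peak, given at that peak, and open marks are genes without one; scores are comparable within a list only, and among the pooled scores sco-1 (1537), cox-5A (742) and atp-5 (666) stand highest.

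In strength, the peaks at these genes were much like those at other protein-coding genes with a peak. Their median pooled score was 195, against 193 at all 1216 protein-coding genes with a peak. The 947 strongest nuclear IDR peaks held 12 of the 17 (70.6%), against 60.9% of the 1216 genes. Above 267, the upper quartile of the nuclear IDR scores, were 6, those of sco-1, cox-5A, atp-5, atp-1, atp-2 and ucr-2.1, and below 112, the lower quartile, were 0. No quartile shares are given for the 1216 genes, whose median of 193 is above the median of 159 of all nuclear IDR peaks. The quartile counts therefore do not set the 17 apart. The lowest score of any nuclear IDR peak was 89.9. All 17 had the highest −log10 q-value in the IDR set, 2.01, so that this value did not rank them. The lowest scores among the 17 were 121 at sdhd-1 and 123 at mev-1, and the highest pooled scores among the members without an IDR peak were 79.3 at nuo-2 and 69.9 at isp-1. Both of the latter are below 89.9, so part of this gap comes from the threshold itself.

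All 17 summits lay in a region of each replicate's list, and the replicates' own summits differed from each other by a median of 10 bp and at most 65 bp. Among the 1894 strongest nuclear regions of replicate 1, 18 of the 46 genes had a summit within 500 bp, against 6.33% of all protein-coding genes. In replicate 2 the count was also 18, against 6.03%. Both replicates had one at 16 of the 46 genes, against 4.85%, and only 1 of them at 4, against 2.66%. These 4 were sdhd-1 and isp-1 in replicate 2, and ucr-2.2 and cox-4 in replicate 1. The ucr-2.2 region, 198 bp upstream, scored 106 in replicate 1 (rank 699), and no region of replicate 2's or the pooled list had a summit within 1500 bp of that 5' end. The cox-4 region, 497 bp upstream, scored 55.2 in replicate 1 (rank 1543), again with none in the other 2 lists. Of the 1894 strongest regions of replicate 1, 137 (7.23%) overlapped no region of the pooled list, against 52 (2.75%) for replicate 2.

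**Figure D3:**
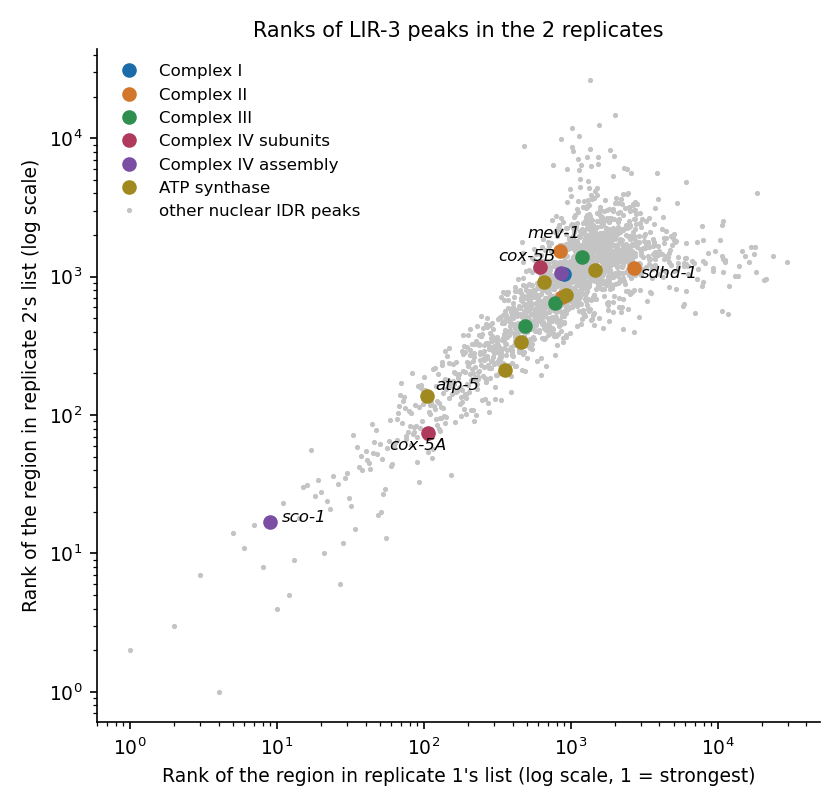
Each point is a nuclear IDR peak with a region in both replicates' lists, placed by the rank of that region in replicate 1 (horizontal) and replicate 2 (vertical), both on log scales with 1 the strongest. Coloured points are the 17 peaks at respiratory chain and ATP synthase genes: sco-1 lies at ranks 9 and 17, cox-5A and atp-5 near rank 100, and sdhd-1 to the right at ranks 2686 and 1151.

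The summits lay upstream, as they did at most protein-coding genes with a LIR-3 peak. All 17 were upstream of the 5' end, against 92.8% of the 1216 protein-coding genes with a peak. The distances ranged from 316 bp (cyc-1) to 12 bp (atp-1) with a median of -245 bp (negative is upstream), against -188 bp over the 1216 genes. In 10 of the 17 (58.8%) the summit was 200 to 350 bp upstream, against 32.4%. That band was not set in advance and holds the median of these same summits, so the contrast is a description only. In 3, those of atp-1, atp-3 and cox-5B, it was within 50 bp. With a window of 250 bp, 10 of the 46 genes had a peak (21.7%), against 3.89% of all protein-coding genes. The annotated 5' end lies more than 100 bp from the coding start in atp-1, atp-3 and cox-5B, at 113, 102 and 284 bp. In the other 14 of the 17 genes that distance is at most 23 bp. Many worm transcripts are trans-spliced, and the annotated 5' end can then be the splice site and not the start of transcription. From the coding start, the 17 summits lay at -335 to -120 bp, with a median of -259 bp. Outside annotated genes lay 15 of the 17 summits, the exceptions being those of nuo-1 and atp-3. No matching share for the 1216 genes is given for this count or for that within 50 bp. Neither count therefore sets these genes apart.

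**Figure D4:**
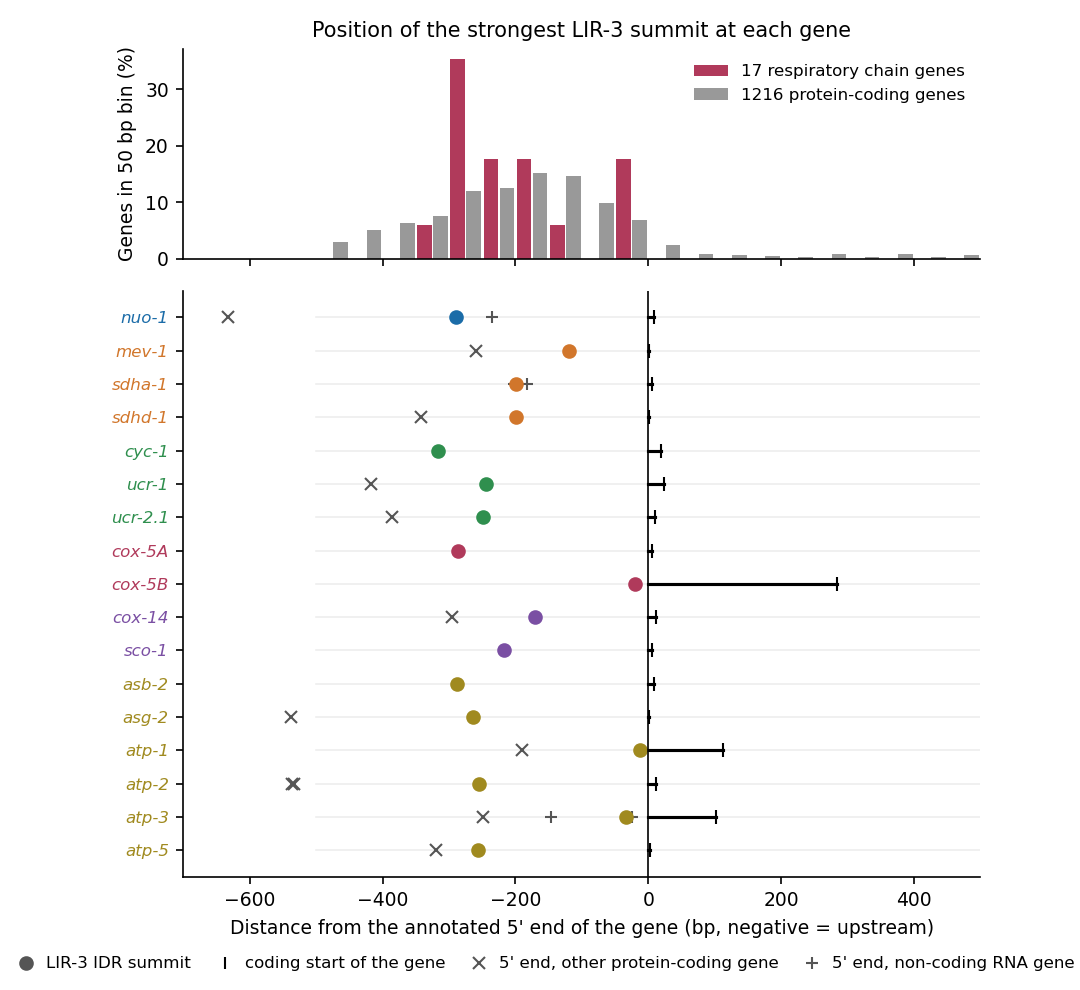
The upper panel gives the percentage of genes per 50 bp of distance from the annotated 5' end to the strongest IDR summit, for the 17 genes (red) and all 1216 protein-coding genes with a peak (grey). The lower panel places each summit (coloured dot), the coding start (black tick) and the 5' ends of other genes near the summit on the same axis: all 17 summits are left of 0, and 3 (cox-5B, atp-1, atp-3) are within 50 bp of it.

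Many of these genes share the upstream sequence with a divergent neighbour. Of the 46, 23 (50%) had the 5' end of a divergent protein-coding gene within 1000 bp upstream, against 17.7% of all protein-coding genes. With such a neighbour, 11 of 23 had a peak (47.8%), against 16.5% of all genes so arranged. Without one, 6 of 23 had a peak (26.1%), against 3.84%. Among the 17 with a peak, the summit was also within 500 bp of another protein-coding 5' end in 11 (64.7%), against 43.8%. The gene's own 5' end was the nearest of any gene, piRNA genes left aside, to a summit in 9 of the 17 (52.9%), against 69.2% of the 1216 genes with a peak. These 9 are 19.6% of the 46, against 4.22% of all protein-coding genes. They are mev-1, cyc-1, cox-5A, cox-5B, sco-1, asb-2, asg-2, atp-1 and atp-2. In the other 8 the 5' end of another gene was nearer. No other 5' end, piRNA genes left aside, was in the window at 5 summits, those of cox-5A, cox-5B, cyc-1, sco-1 and asb-2, and no matching share for the 1216 genes is given. A summit between 2 genes does not show which of them it belongs to.

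Other members follow another gene on the same strand, as the later genes of a worm operon do. In 16 of the 46 (34.8%) a protein-coding gene on the same strand ended within 500 bp upstream, against 18.1%. Of these 16, 2 had a peak (12.5%), sdha-1 and cyc-1, against 4.43% of all genes so placed. Of the other 30, 15 had one (50%), against 6.46%. At the first gene of the chain, a peak was present for 5 of the 16 (31.2%), against 14.1%. These were at lin-54 (370 bp upstream, score 785) for cox-11, rpl-20 (286 bp, 1239) for cyc-2.1, rpn-9 (256 bp, 221) for cox-15, dad-1 (405 bp, 309) for ucr-11 and syf-2 (384 bp, 193) for nuo-4. None of these 5 members was counted among the 17. Whether the genes of each chain are transcribed as one unit was not tested.

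Several subunits have more than 1 gene, and a single copy had a peak in each such set that had any. A peak lay at asb-2 and none at asb-1, which is known as a germline form of subunit b. One lay at asg-2 and none at asg-1, at sdha-1 and none at sdha-2, and at ucr-2.1 and none at ucr-2.2 or ucr-2.3. The 4 copies with a peak are all on the X chromosome, whereas asb-1 and ucr-2.3 are on III, asg-1 and sdha-2 on I, and ucr-2.2 on X too. Neither cytochrome c gene, cyc-2.1 or cyc-2.2, had a peak. At sdha-1 and ucr-2.1 the 5' end of another gene was nearer to the summit, and the asg-2 summit was shared with glr-6. By chromosome, 4 of 6 members on X had a peak (66.7%, 22.3 to 95.7%) and 13 of 40 on the autosomes (32.5%, 18.6 to 49.1%), against 4.17% of all protein-coding genes on X and 6.39% on the autosomes. The 4 on X are these same 4 copies, so this is not a further observation. How reads from near-identical stretches were treated is not given in the sources used here.

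The 29 genes without an IDR peak had regions in the lists from before the threshold about as often as other genes without one. A region of the pooled list lay within 500 bp of 8 of them (27.6%), against 31.1% of all genes without an IDR peak, and such a region may be background. They were nuo-2 and isp-1, described above, and cox-7C (45), ucr-11 (42.1), nuo-4 (39.4), cyc-2.1 (28.6), cox-16 (28.5) and nuo-3 (27). A further 9 had a region in a replicate's list only, and 12 had none in any of the 3 lists. Those 12 are 26.1% of the 46, against 47% of all protein-coding genes, but a gene with an IDR peak cannot be among them. Among genes without an IDR peak they are 12 of 29, against 9392 of 18757. Counted over all 46, the 17 with an IDR peak included, a region lay within 500 bp of 25 genes in the pooled list (54.3%, against 35.3%), 26 in replicate 1 (56.5%, against 35.4%) and 27 in replicate 2 (58.7%, against 35.4%).

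Windows of 100 bp on each side of the 17 summits were searched for 9 short sequences on both strands, beside those at 952 nuclear IDR summits near protein-coding genes and 19973 windows of the same length centred 250 bp upstream of every protein-coding 5' end. The 952 windows include the 17, and the sequences were chosen with earlier results of these data known. GGGCGG was present in 6 of the 17 (35.3%: asb-2, atp-1, atp-2, atp-3, mev-1 and ucr-2.1), against 10.4% of the IDR windows and 4.21% of the upstream windows. Its matches began 34 to 69 bp after the summit on the gene's strand, and those of atp-1 and atp-3 lay past the 5' end. CTGCGTCT was present in 2 (11.8%: asb-2 and ucr-1), against 12.3% and 2.14%. GTCTCGCA, which was picked after the windows had been read, was present in 4 (23.5%: asb-2, atp-2, nuo-1 and sco-1), against 4.31% and 0.726%. Because these windows were used to pick it, its share among them supports nothing. In these 4 windows it began between 5 bp before and 21 bp after the summit on the gene's strand, and no match of the 3 sequences overlapped another. GAGAGA was present in 4 (23.5%), against 32.8% and 13%, TATAAA in 2 (11.8%), against 19% and 24.4%, and a run of 8 T, TTTTTTTT, in 4 (23.5%), against 12.5% and 23.8%. CACGTG, TGACGTCA and GGTTCGA were in none of the 17 windows, against 6.62%, 1.58% and 2.42% of the IDR windows and 3.11%, 1.31% and 1.13% of the upstream windows. The median GC content was 43.3% in the 17 windows, against 39.8% in the IDR windows and 33.8% in the upstream windows; its part in the share with GGGCGG was not tested. A match is a stretch of letters and does not show binding of any factor.

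Genes of related mitochondrial pathways, taken from lists of names, were counted in the same way. The list for complex I outside the name rule took 27 genes named nduf-, ndua-, ndub-, nduc-, nduv-, nuaf- or lpd-5. Of these, 3 had a peak (11.1%, 2.35 to 29.2%): nduf-11 (score 263), ndua-1 (145) and nduv-2 (99.9), annotated as a further flavoprotein of the complex. Genes named ndus- were left out of that list, although ndus-8 had a summit at -165 bp. The count therefore does not cover all of complex I. None of 9 further cytochrome c oxidase assembly genes had one (upper limit 33.6%). For coenzyme Q, 1 of 8 genes had a peak (12.5%, 0.316 to 52.7%), the methyltransferase gene coq-5 (329). In pyruvate dehydrogenase and the citric acid cycle it was 7 of 19 (36.8%, 16.3 to 61.6%), led by dld-1 (509), sucl-1 (258), mdh-2 (227) and cts-1 (217), for dihydrolipoyl dehydrogenase, succinate-CoA ligase, malate dehydrogenase and citrate synthase. In protein import and inner membrane organisation it was 6 of 20 (30%, 11.9 to 54.3%), led by tomm-20 (317), a receptor of the outer membrane, phb-2 (221), a prohibitin, tin-13 (159) and tin-9.2 (148). Among nucleotide carriers, porin and ATP synthase inhibitors it was 4 of 8 (50%, 15.7 to 84.3%): the ADP/ATP carrier ant-1.1 (298), the inhibitors mai-2 (128) and mai-1 (111), and the porin vdac-1 (96.1). For mitochondrial DNA and transcription, 1 of 5 had a peak (20%, 0.505 to 71.6%), the single-strand DNA-binding protein gene mtss-1 (135). The gene's own 5' end was the nearest to a summit in 5 of the 7 pyruvate dehydrogenase and citric acid cycle genes. It was so in 5 of the 6 import genes and in every gene with a peak in the other lists. The summits of nduv-2, coq-5, mdh-2 and tin-9.2, among others, were shared with another gene. Over these lists 22 of 96 genes had a peak (22.9%, 15 to 32.6%), against 6.09% of all protein-coding genes. The intervals of the lists overlap that of the 46 genes, and the differences were not tested. The lists were chosen with earlier results of these data known, so this total is a description only.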

How the data were processed

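LIR-3 ChIP-seq was done in 2 biological replicates of whole L1 larvae. Per the deposited file descriptions, the authors listed peaks together with background regions in each replicate and in the pooled replicates, and took the IDR set from those. Each deposited list gives positions, summits, the authors' score and a −log10 q-value per region. The sources used here name no aligner, peak caller, version or IDR threshold. The lists on ce10 were not used, and no column of the ce11 lists was left unmatched. All nuclear IDR peaks are in the pooled list with the same score, so that an IDR score is a pooled score. The depth of sequencing is unknown, and no count of reads per sample is given.

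From the ce11 lists, the distance of each summit from gene 5' ends (Ensembl release 115, lengths of chromosomes checked against the RefSeq genome) was computed with Python 3.11.15, numpy 2.4.6, pandas 2.3.3 and scipy 1.17.1. Where several IDR summits were in a window, the strongest was described. Shares have exact Clopper-Pearson 95% intervals. Genes are not replicates and there is 1 group, so no p-values are given. The counting was tested on simulated data. The members, lists and motifs were chosen with earlier results of these data known. Genes named are the members, the genes sharing their summits, and up to 4 genes of each related list by score. Genes first in a chain were also named, by position, and ndus-8, which is in no list. Alternatives were other windows, gene starts, peak sets and each replicate alone.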

Additional observations from a re-analysis of the deposited data

How the results depend on the processing

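The count of 17 of the 46 genes with a peak fell to 10 with a window of 250 bp (776 of all protein-coding genes, against 1216 with 500 bp) and to 9 when a summit counted for no gene but the one whose 5' end was closest. Among the 947 strongest IDR peaks it was 12, and the count of all protein-coding genes was then 741. With 1000 bp, any base of the peak, every transcript's 5' end or the coding start it was 17 or 18. The 1894 strongest pooled regions gave the same 17 members and the same 1216 protein-coding genes as the IDR set. IDR scores are pooled scores, so that setting is not a separate check. With each replicate alone, taking its 1894 strongest regions, 18 members had a summit both without replicate 1 and without replicate 2, of which 17 and 16 were among the 17, and the count of all protein-coding genes was 1204 to 1264. Genes whose own 5' end was nearest numbered 9 without replicate 1 and 11 without replicate 2. The median distance of -245 bp became -185 bp with 250 bp, where more distant summits are left out by construction, and ranged from -248 to -218 bp with 1 replicate left out, with -218 bp without replicate 2. The cause of that shift was not tested. Over the main setting and all alternatives for the count, 11 settings in all, 2 members (atp-1 and sco-1) had a summit in each, and 25 had one in none. No paired analysis was possible because there is 1 group. Read depth is unknown, so a gene without a peak cannot be separated from one below detection.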

Other observations

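The genes that share summits with respiratory chain and ATP synthase genes have varied annotations. The atp-2 summit is shared with C34E10.10, annotated as an rRNA-processing protein, and C34E10.12, annotated with a CHCH domain. The atp-3 summit is shared with F27C1.2, annotated as a copper transport protein, and the asg-2 summit with glr-6, annotated as a glutamate receptor. At 5 of the 11 summits shared with a protein-coding gene, that gene's 5' end was nearer than the member's: lmtr-3 (atp-5), nmat-1 (ucr-2.1), ilkp-1 (sdhd-1), rde-4 (cox-14) and ddx-15 (ucr-1).

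Among the named genes of the related lists, the porin gene vdac-1 was the one whose summit lay downstream of the 5' end, at 377 bp.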
